A study of Mus musculus with 2 samples.

Results

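A set of 10 receptor genes through which lymphoid and progenitor cells receive cytokine signals was followed in mouse thymocytes of 2 mutant genotypes: Il2ra, Il2rb, Il2rg, Il7r, Il4ra, Csf2rb, Il18r1, Kit, Flt3 and Il21r. They were chosen by name, and every probe set that the platform annotation assigns to one of them alone was taken, which gave 16 probe sets for 9 of the 10 genes, of 18193 genes named on the arrays. Il2rg had no probe set listed under its name in the annotation table and was not analysed here. Thymocytes of C57BL/6J mice were depleted of lineage-positive cells with magnetic beads, and RNA of the lineage-negative cells was hybridised to Affymetrix expression arrays, 1 for TKO and 1 for DKO. By the series' design text the TKO cells carry Lck-Cre, a recombinase driven by a T-lineage promoter, and floxed Ring1B (Rnf2), while the DKO cells carry the floxed alleles without the recombinase, and both groups lack Cdkn2a and Ring1A (Ring1). The genotype field of the samples words this differently, with Ring1A and Ring1B lost in DKO and Cdkn2a lost in addition in TKO. The growth field states that the thymocytes were kept in standard medium, and neither a wild-type array nor a Lck-Cre control array was analysed here.

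Cytokine receptors of this set fall into 3 kinds. Il2ra, Il2rb, Il2rg, Il7r, Il4ra, Il21r and Csf2rb encode chains of receptors that signal through Janus kinases (JAK) and STAT transcription factors; Il2rg is the chain common to the receptors for interleukins 2, 4, 7 and 21, and Csf2rb the chain common to those for interleukin 3, interleukin 5 and GM-CSF. Il18r1 belongs to the interleukin-1 receptor family, which signals through Myd88, and Kit and Flt3 are receptor tyrosine kinases of blood progenitors. In the thymus, early double-negative cells carry Kit, then gain Il2ra (CD25) and lose both before the double-positive stage, and interleukin 7 receptor signals keep double-negative cells alive.

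The arrays were compared with 1 array per genotype, so the spread between animals is unknown, no test was made, and every difference given is one between these 2 arrays. The values are MAS5 signals scaled alike by the authors (trimmed means 497 on both arrays). A signal below the median of its array, called the floor (71.8 on the TKO and 68.8 on the DKO array) was not counted as measured, and a gene was called higher or lower when its signals differed by 2-fold or more. Signals of different probe sets depend on their own probes and were not read as relative amounts of different genes. A summed signal of a list adds the brightest probe set of each gene on the arrays, also of genes below the floor. Bright probe sets therefore weigh most in such a sum. As a gauge of technical error within these hybridisations, differences between the log2 ratios of paired probe sets of one gene correspond to a robust SD of 0.21 per probe set over 4794 genes; this gauge holds no error between RNA preparations or animals. The labels could be checked only in part. Cdkn2a had a signal of 18.5 on the TKO array, under the floor, and 679 on the DKO array. This goes against the design text, while the genotype field does give a loss of Cdkn2a in TKO and not in DKO. Cdkn2a is thus itself a difference between the arrays. The brightest Rnf2 probe set had 4384 on the TKO and 4149 on the DKO array, with no loss of transcript in either relative to the other, and Ring1 had 147 on the TKO and 133 on the DKO array; the position of these probe sets relative to the deletions was not analysed here. TKO and DKO therefore mean the arrays labelled so. The sex-linked transcripts also differed: Xist was 133-fold higher on the TKO array, and the Y-linked Kdm5d, Uty and Eif2s3y were above the floor on the DKO array alone, so sex and genotype label cannot be told apart. None of the 9 receptor genes with a probe set lies on the X or Y chromosome (0 of 9).

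Csf2rb and Il18r1 passed 2-fold with higher signals on the TKO array, Il2ra was at least 2-fold lower, 5 genes (Il2rb, Il7r, Il4ra, Kit and Il21r) were neither, and Flt3 lay below the floor on both arrays. Among all 11280 genes measured, 3.58% were at least 2-fold higher and 0.532% at least 2-fold lower; among the 8 receptor genes measured these were 2 and 1. Of 16 receptor probe sets, 11 were measured, all on both arrays, of which 2 were higher and 1 lower, against 2.91% and 0.578% of all 23894 probe sets measured. The median log2 ratio (TKO minus DKO) of the 8 genes was 0.66, with 6 positive and 2 negative, beside -0.027 over all genes measured. The genes were chosen with earlier results of these arrays known, so these counts are descriptions.

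**Figure D1:**
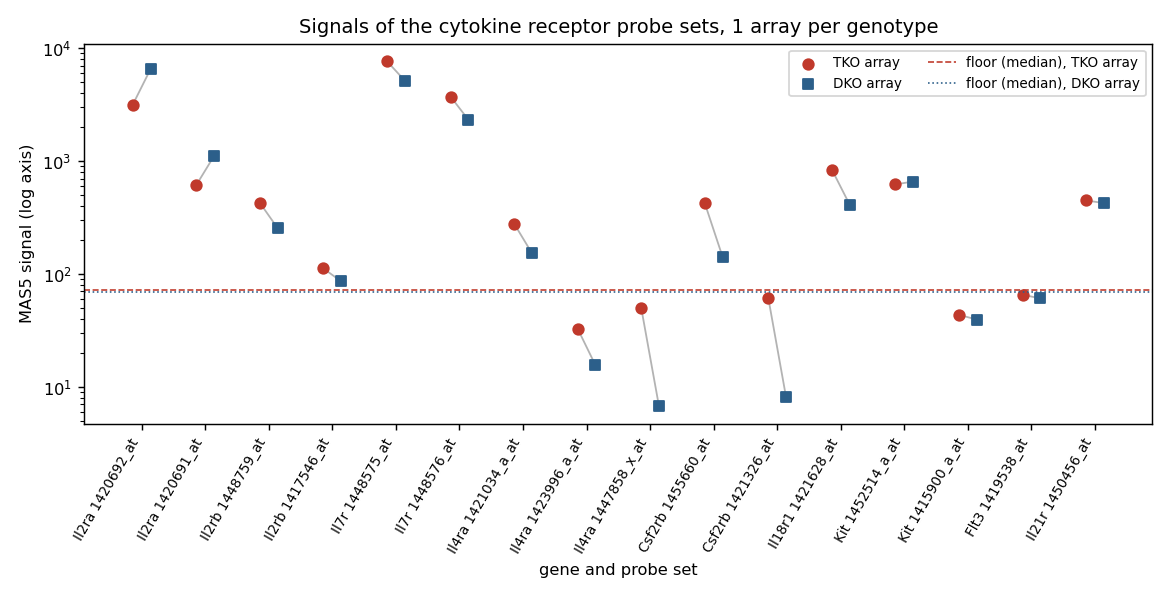
MAS5 signal (log axis) of each receptor probe set on the TKO array (red circles) and the DKO array (blue squares), with the median signal of each array as a horizontal line. Both Il2ra probe sets sit lower on the TKO array (3162 against 6536, and 614 against 1112), Csf2rb 1455660_at sits higher (424 against 142), and 5 of the 16 probe sets lie below the lines on both arrays.

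Promoter sequences show how much these genes differ in the CpG content that mammalian Polycomb complexes are known to favour. RefSeq windows (GRCm38.p6) from 250 bases before to 50 after a transcript start were found for 7 of the 9 genes, 10 windows in all; Il2rb and Csf2rb had none. The 250 bases before the start are shown for the gene that was lower, for a start of one that was higher, and for the receptor with the highest CpG ratio, on the plus strand with CpG dinucleotides in capitals. They lie at chr2:11642542-11642791 (Il2ra), chr1:40465756-40466005 (Il18r1, the last of 3 annotated starts) and chr7:125552021-125552270 (Il4ra).
Il2ra: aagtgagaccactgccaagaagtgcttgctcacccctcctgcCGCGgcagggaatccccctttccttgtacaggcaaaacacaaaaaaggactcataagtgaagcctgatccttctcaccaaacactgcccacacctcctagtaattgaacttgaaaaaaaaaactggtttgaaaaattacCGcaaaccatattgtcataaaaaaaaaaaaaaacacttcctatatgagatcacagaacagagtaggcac
Il18r1: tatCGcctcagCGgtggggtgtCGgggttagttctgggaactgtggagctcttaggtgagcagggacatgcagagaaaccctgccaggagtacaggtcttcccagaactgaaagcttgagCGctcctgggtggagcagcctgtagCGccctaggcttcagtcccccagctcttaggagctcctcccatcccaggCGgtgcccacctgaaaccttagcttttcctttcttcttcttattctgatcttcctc
Il4ra: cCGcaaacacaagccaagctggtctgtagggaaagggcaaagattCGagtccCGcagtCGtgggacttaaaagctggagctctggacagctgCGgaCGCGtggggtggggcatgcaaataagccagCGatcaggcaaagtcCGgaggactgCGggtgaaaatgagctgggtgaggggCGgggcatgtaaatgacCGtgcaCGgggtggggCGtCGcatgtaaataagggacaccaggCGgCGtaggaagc

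These stretches hold 3 CpG dinucleotides for Il2ra, 6 for Il18r1 and 17 for Il4ra. Over the full window of 300 bases, the observed over expected CpG ratio was 0.23 for Il2ra, between 0.33 and 0.35 for the 3 Il18r1 starts and 0.93 for Il4ra, beside a median of 0.38 over 32851 windows of all genes. The other windows ran from 0.065 for Il7r and 0.30 for Il21r to 0.65 for Flt3 and 0.62 and 0.65 for the pair of Kit starts. The 2 called genes with a window thus lay below the median of all windows, as did Il7r and Il21r, which were not called. The STAT motif TTCNNNGAA, which is its own reverse complement, was found in 2 of the 10 windows and in 8.30% of all windows. The last Il18r1 window held it as TTCTGGGAA and TTCCCAGAA, beginning 219 and 152 bases before the start, and the Il7r window as TTCAGGGAA, beginning 142 bases before it. The RUNX core TGTGGT, searched on both strands, was found in 3 of the 10 windows (Il18r1, Il21r and Il7r, 1 match each) and in 16.8% of all windows. These matches describe letters only, and no binding was measured.

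Il2ra, the interleukin 2 receptor alpha chain that double-negative thymocytes gain after Kit, was the one receptor counted as lower. Its probe set 1420692_at gave 3162 on the TKO array and 6536 on the DKO array, 2.07-fold lower (log2 ratio -1.05). The second probe set, 1420691_at, gave 614 on the TKO array and 1112 on the DKO array (log2 ratio -0.86), short of 2-fold. Both probe sets were thus lower on the TKO array, with the first just past the size rule and the second just short of it, a difference between them within the 0.21 gauge. Over the mean of both, Il2ra was at -0.95, and after removal of a lowess trend at -0.98, under 2-fold in each case. The T lineage markers were also lower on the TKO array. All 9 measured of the 11 listed had negative ratios, from -0.73 for Cd3d to -0.18 for Cd3e, none past 2-fold, and their summed signal was 62562 on the TKO and 92703 on the DKO array. Both Il2ra ratios lay below that range. In these bulk samples fewer cells of a type and less RNA per cell cannot be told apart, and the part of the T lineage signals in the Il2ra difference was not tested.

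Il2rb, the signalling chain that the receptors for interleukins 2 and 15 have in common, stood on the other side. Probe set 1448759_at gave 426 on the TKO array and 254 on the DKO array (log2 ratio 0.75), and 1417546_at, nearer the floor, gave 112 on the TKO array and 85.8 on the DKO array (log2 ratio 0.38). Neither reached 2-fold, while both were higher on the TKO array. The interleukin 2 receptor alpha and beta chains thus had ratios of opposite sign in every measured probe set. Il15ra, the private chain of the interleukin 15 receptor, was at -0.18 (207 on the TKO and 235 on the DKO array), with a second probe set at 0.094.

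Il7r, the interleukin 7 receptor alpha chain, had higher signals on the TKO array in both of its probe sets without reaching 2-fold. Probe set 1448575_at gave 7665 on the TKO array and 5159 on the DKO array (log2 ratio 0.57). Probe set 1448576_at gave 3728 on the TKO array and 2325 on the DKO array (log2 ratio 0.68). The 2 log2 ratios differed by less than the 0.21 gauge, and over the alternative settings the gene stayed between 0.57 and 0.66. Interleukin 7 receptor is carried by early B cells as well as by double-negative thymocytes, and the B lineage markers moved far more: 9 of 9 measured genes of the 10 listed passed 2-fold with higher signals on the TKO array, from 2.33-fold for Cd79a to 6.92-fold for Fcrla by the brightest probe set of each, with a summed signal of 30885 on the TKO and 7572 on the DKO array. Other measured probe sets were under 2-fold for Fcrla (0.92, beside one at 1.74) and Pax5 (0.24). All 9 were also above the floor on the DKO array. Their part in the Il7r difference was not tested. Crlf2, which pairs with the Il7r chain to bind TSLP, was at -0.13 (833 on the TKO and 912 on the DKO array).

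Il4ra, the interleukin 4 receptor alpha chain, and Il21r, the interleukin 21 receptor, are both borne by B cells, and neither was called. Il4ra probe set 1421034_a_at gave 279 on the TKO array and 153 on the DKO array (log2 ratio 0.87, 1.82-fold). The other Il4ra probe sets lay below the floor on both arrays, at 32.7 on the TKO and 15.5 on the DKO array for 1423996_a_at and at 50.1 on the TKO and 6.71 on the DKO array for 1447858_x_at, and signals there have no order. Il21r gave 448 on the TKO array and 424 on the DKO array (log2 ratio 0.078), a difference smaller than the gauge of 0.21. The part of the B lineage signals, whose sum was 30885 on the TKO and 7572 on the DKO array, in the Il4ra difference was not tested.

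**Figure D2:**
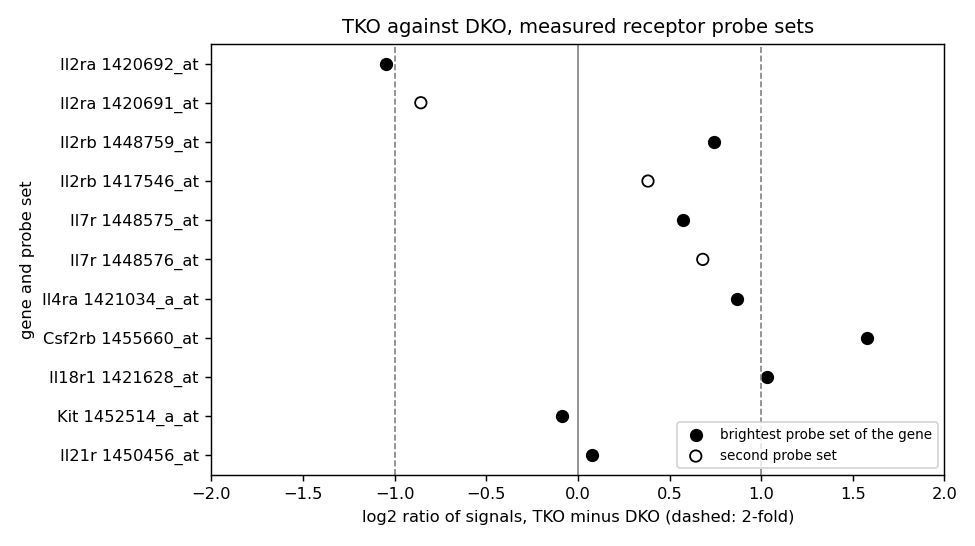
Log2 ratio of signals (TKO minus DKO) for the 11 measured receptor probe sets, with filled points for the brightest probe set of each gene, open points for its second, and dashed lines at 2-fold. Csf2rb (1.58) and Il18r1 (1.03) lie right of the upper line, Il2ra 1420692_at (-1.05) lies left of the lower one, and the other points fall between the lines.

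Csf2rb, the beta chain of the receptors for interleukin 3, interleukin 5 and GM-CSF, had the highest ratio of the 8. Probe set 1455660_at gave 424 on the TKO array and 142 on the DKO array, 2.99-fold higher (log2 ratio 1.58). The call rests on this probe set alone. The second one, 1421326_at, lay below the floor on both arrays at 61.0 on the TKO and 8.05 on the DKO array, and a probe set assigned to Csf2rb and its close paralog Csf2rb2 together lay below the floor on both arrays too. Csf2rb2, an interleukin 3 receptor beta chain of the mouse, was measured on the TKO array alone, at 77.4 against 48.1 on the DKO array, at least 1.12-fold higher; cross-hybridisation between the paralogs was not tested. Both Csf2rb signals of 1455660_at lay under the 75th percentile of their arrays (431 on the TKO and 417 on the DKO array), so with that percentile as the floor Csf2rb had no ratio. Of its partner chains, Csf2ra, the GM-CSF receptor alpha chain, was at 0.27 (159 on the TKO and 131 on the DKO array) with a second probe set at -0.21, Il3ra at -0.82 (75.8 on the TKO and 134 on the DKO array), and Il5ra lay below the floor on both.

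Cells that use Csf2rb include macrophages, granulocytes and mast cells, and their markers did not move together. The macrophage and monocyte list had 6 of 8 genes measured, all with positive ratios, 2 of them at least 2-fold higher (Lyz2 at 1.32 and Csf1r at 1.69). Fcgr1 and Mertk were above the floor on the TKO array alone, which fixed the sign of their ratios. The summed signal of this list was 3489 on the TKO and 1454 on the DKO array. Most of that sum was Lyz2, at 2131 on the TKO and 855 on the DKO array. Cd14 and Itgam lay under the floor on each array. The granulocyte list had 8 of 8 measured, 6 with negative and 2 with positive ratios (Ltf at 0.74 and Prtn3 at 0.27). Of these, 2 were at least 2-fold lower (Ngp at -1.54 and S100a9 at -1.16). Elane, with a negative ratio, was above the floor on the DKO array alone. The granulocyte list had a summed signal of 1844 on the TKO and 3233 on the DKO array. Of 7 mast cell markers 3 were measured, all with negative ratios, with Cma1 at least 2.52-fold lower. Cma1 and Mcpt4 were above the floor on the DKO array alone, which fixed the sign of their ratios. Only Cpa3 was measured on both arrays, at -0.88 (884 on the TKO and 1622 on the DKO array). It made up most of the summed signal of the list, 1042 on the TKO and 2039 on the DKO array. Tpsb2, Fcer1a, Ms4a2 and Hdc were below the floor on both. The part of these 3 lists in the Csf2rb difference was not tested. Nor was that of the B lineage signals, whose sum was 30885 on the TKO and 7572 on the DKO array.

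Il18r1, the ligand-binding chain of the interleukin 18 receptor, had 1 probe set and was just past 2-fold. Probe set 1421628_at gave 840 on the TKO array and 411 on the DKO array, 2.04-fold higher (log2 ratio 1.03). The log2 ratio was 0.99 after quantile normalization and 0.93 with a pseudocount equal to the floor, both short of 2-fold. Il18rap, the accessory chain of the same receptor, gave 379 on the TKO array and 204 on the DKO array (log2 ratio 0.89), with a second probe set at 0.11. Il18 itself was at 0.29 (323 on the TKO and 264 on the DKO array), and Myd88, the adaptor of this receptor family, at -0.16. Natural killer and innate lymphoid cells carry Il18r1 and Il2rb, and all 7 measured of 8 listed markers of these cells had positive ratios, from 0.21 for Zbtb16 to 1.08 for Klrd1, the one past 2-fold. Their summed signal was 8692 on the TKO and 4609 on the DKO array. Most of that sum was Id2, at 4608 on the TKO and 2405 on the DKO array. The part of these markers in the Il18r1 and Il2rb differences was not tested.

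Of the progenitor tyrosine kinases, Kit was within 0.21 of a log2 ratio of 0 and Flt3 was not measured. Kit, the receptor for stem cell factor, gave 621 on the TKO array and 659 on the DKO array with 1452514_a_at (log2 ratio -0.085), and its second probe set 1415900_a_at lay below the floor at 43.4 on the TKO and 39.4 on the DKO array. Flt3, the receptor of lymphoid-primed progenitors and dendritic cells, gave 65.6 on the TKO array and 60.6 on the DKO array, both below the floor. The stem and early progenitor list had 5 of 8 genes measured, 4 with positive ratios and 1 with a negative one, and a summed signal of 2247 on the TKO and 893 on the DKO array. Most of that sum was Lmo2, at 1656 on the TKO and 468 on the DKO array (log2 ratio 1.82). Hoxa9 was at 1.86 or more with a second measured probe set at -0.28, and Hlf, also positive, was at 0.029. Cd34 was at -0.37 or below (42.1 on the TKO and 92.9 on the DKO array), while Mecom, Tal1 and Meis1 lay under the floor on each array. The brightest probe sets of Hoxa9 and Gata2 were above the floor on the TKO array alone, and Cd34 on the DKO array alone. This fixed the signs of these ratios. Of receptor tyrosine kinases related to Kit, Csf1r, the macrophage colony-stimulating factor receptor, was 3.23-fold higher (807 on the TKO and 249 on the DKO array), with its 2 other measured probe sets at log2 ratios of 0.73 and 1.41. Pdgfrb, the beta receptor for platelet-derived growth factor, was 2.53-fold lower (1423 on the TKO and 3605 on the DKO array) with a second probe set at -1.09, and Pdgfra was below the floor on both.

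The other receptor chains were not shifted to one side. Of 27 listed partner and related chains, 24 had a probe set and 17 were measured, 2 of which were higher (Il6ra and Csf1r), 1 lower (Pdgfrb) and 14 neither, with a median log2 ratio of 0.020. Il6ra, the interleukin 6 receptor alpha chain, was 3.50-fold higher (329 on the TKO and 93.8 on the DKO array), but its second measured probe set was at 0.36. Il10ra, the interleukin 10 receptor alpha chain, was at 0.89 (458 on the TKO and 246 on the DKO array), with a second measured probe set at 0.094. Of 14 ligand genes 13 had a probe set and 2 were measured, Il18 and Il15, which was at 0.22; the other 11 were below the floor on both arrays, among them Il2, Il4, Il7, Il3, Il21, Csf2 and Kitl.

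**Figure D3:**
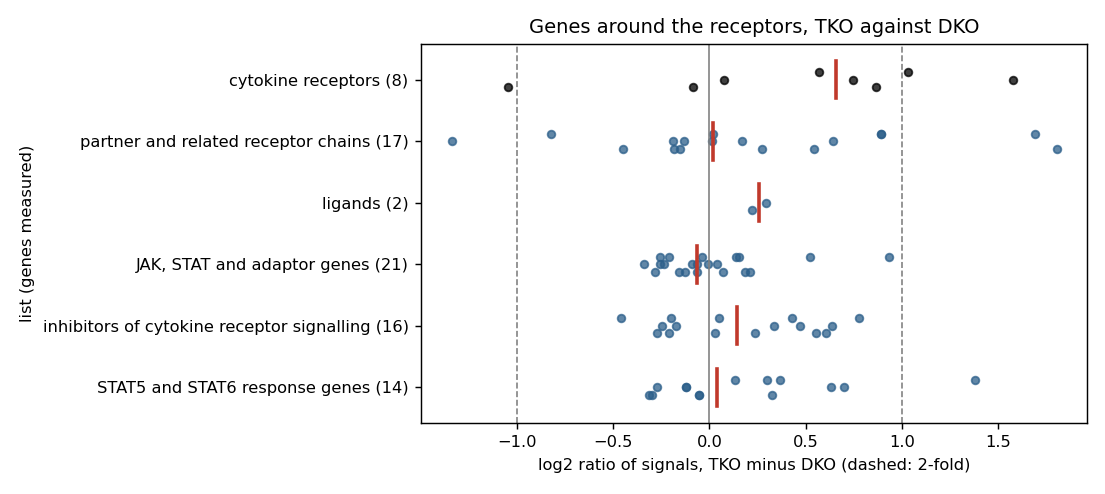
Log2 ratio of signals (TKO minus DKO) of each measured gene in the receptor set and in 5 lists around it, with the number of genes measured in brackets, red bars at the list medians and dashed lines at 2-fold. The receptor median is at 0.66, the medians of the related chains, the JAK, STAT and adaptor genes, the inhibitors and the response genes lie between -0.066 and 0.14, and the ligand list has 2 genes.

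Signalling genes downstream of these receptors differed less than 2-fold by the brightest probe set of each gene. Of 24 JAK, STAT and adaptor genes 21 were measured and 0 were higher or lower, with ratios from -0.34 to 0.93 and a median of -0.066. Of the other probe sets, those of the X-linked Irak1, a kinase downstream of Myd88, ran from -1.13, past 2-fold, to -0.027. The brightest Irak1 probe set was at 0.041. Gab2, an adaptor of Kit and cytokine receptors, was at 0.93 (229 on the TKO and 120 on the DKO array) with a second probe set at -0.029. Jak3, the kinase bound by the Il2rg chain, was at 0.52 (152 on the TKO and 106 on the DKO array). Stat3 was at -0.34 (1332 on the TKO and 1684 on the DKO array), with its other probe sets between -0.35 and 0.46. Stat5a and Stat5b, the STAT factors of interleukins 2 and 7, were at -0.28 and -0.23, with second probe sets at -0.63 for Stat5a and 0.49 for Stat5b, and Stat6, that of interleukin 4, was at 0.15, with a second at 0.026; the choice of these 3 was made with their values known.

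The 16 inhibitors of cytokine receptor signalling were all measured, and 0 were higher or lower, with a median of 0.14. The largest ratios were those of Sh2b3, an adaptor that restrains Kit and JAK signals, at 0.78 (636 on the TKO and 370 on the DKO array), Ptpn6, a phosphatase, at 0.64 (4379 on the TKO and 2816 on the DKO array), and Socs3, a feedback inhibitor of JAK kinases, at 0.61, whose other probe sets were at 0.079 and 0.082. Cish, a feedback inhibitor induced by STAT5, was at 0.24 (857 on the TKO and 727 on the DKO array); it was chosen after its value was seen. Of 15 genes known to respond to STAT5 or STAT6, 14 were measured, with 1 higher, 0 lower and a median of 0.040. The higher one was Bcl6, a transcriptional repressor of B and T cells that STAT5 is known to repress, at 2.60-fold (678 on the TKO and 261 on the DKO array). Pim2, a survival kinase encoded on the X chromosome, was at 0.70 (436 on the TKO and 269 on the DKO array), Prf1, encoding perforin, at 0.63, and Mcl1, a survival factor, at 0.37 (6261 on the TKO and 4847 on the DKO array).

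**Figure D4:**
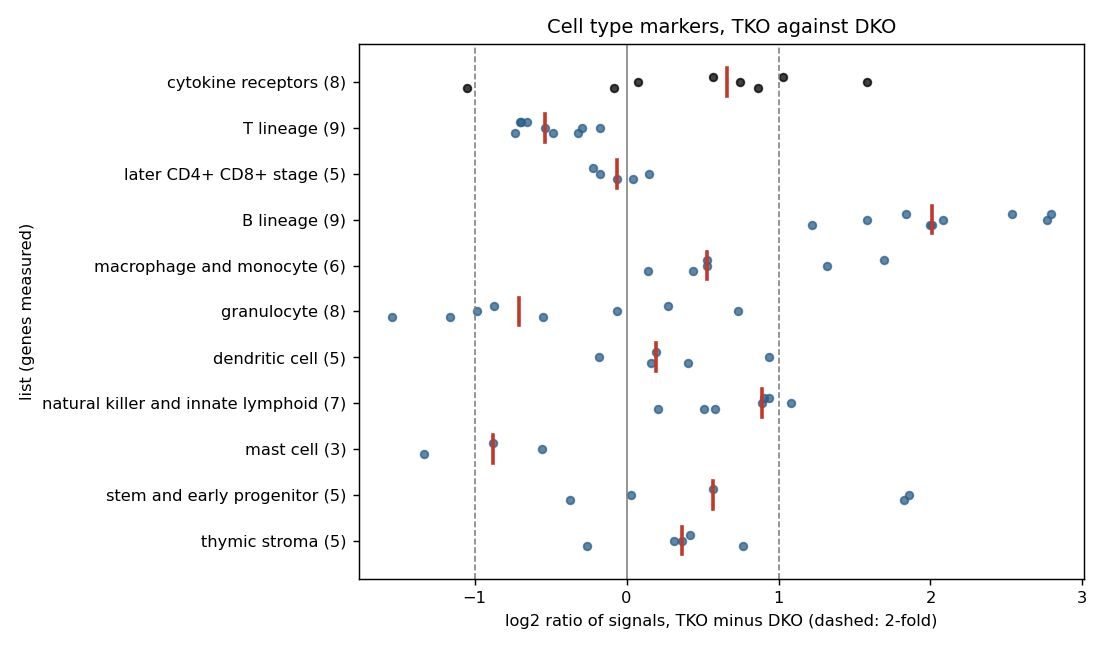
Log2 ratio of signals (TKO minus DKO) of each measured gene of the receptor set and of 10 cell type marker lists, with the number of genes measured in brackets, red bars at the medians and dashed lines at 2-fold. All 9 B lineage genes lie right of the upper 2-fold line, all 9 T lineage genes lie left of 0, and the 8 receptor genes spread from -1.05 to 1.58.

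The markers bear on what the lineage-negative fraction held. The 9 T lineage genes ran from 1372 (Gata3) to 13607 (Cd3g) on the TKO array and from 1680 to 22057 on the DKO array for the same genes, Cd4 was below the floor on both (12.2 on the TKO and 17.8 on the DKO array), and Cd8a and Cd8b1 were above it at log2 ratios of 0.044 and 0.15. The dendritic cell list had 5 of 8 genes measured and 0 past 2-fold, with Siglech and Xcr1 below the floor on both arrays. Of its ratios 4 were positive, the highest that of Zbtb46 at 0.94 or more, and 1 was negative, that of Bst2. Zbtb46, Batf3 and Cd209a were above the floor on the TKO array alone, which fixed the sign of their ratios. Only Itgax (0.16) and Bst2 (-0.18) were measured on both arrays. The summed signal of the dendritic cell list was 3359 on the TKO and 3538 on the DKO array. Most of that sum was Bst2, at 2707 on the TKO and 3071 on the DKO array. The thymic stroma list had 5 of 7 measured, 4 with positive (Col3a1 above the floor on the TKO array alone) and 1 with a negative ratio, and 0 past 2-fold. Its summed signal was 1416 on the TKO and 1370 on the DKO array, with Foxn1 and Col1a1 below the floor. The 4 erythroid markers with a probe set lay under the floor on each array. The list of the later CD4+ CD8+ stage had 5 of 7 measured, 2 with positive and 3 with negative ratios, and 0 past 2-fold. Its summed signal was 13854 on the TKO and 15610 on the DKO array. Most of that sum was Rag1, at 9732 on the TKO and 11324 on the DKO array, so it says little of the other genes.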

How the data were processed

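Each value is a one-colour array intensity on a linear scale, 1 per probe set, deposited by the authors. Per the submitters' processing notes MAS5 was used; its version and settings are not given in those notes. This method subtracts background within an array and then scales the array. Detection calls, scanner files and scan dates were not used here, so signals of absent transcripts are not 0 and batch was not tested. The number of arrays (2) limits the precision.

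Arrays were grouped by title. The platform annotation gave 1 gene for 34945 of 45037 probe sets, several for 932 and none for 9160; 99.4% of those with 1 gene matched a RefSeq gene table (GRCm38.p6) by Entrez ID, used for symbols and chromosomes. Each gene took the values of its brightest probe set by mean log2 signal. Signals were raised to the array median (the floor) before the log2 ratio, TKO minus DKO, which shrinks ratios of dim genes. With 1 array per genotype a size rule of 2-fold replaced a test. Named genes are all receptor genes and, per pathway list, those past 2-fold and up to 3 others with the largest absolute ratio. Exceptions are stated, and partner chains and Myd88 beside a receptor were chosen with values known. Irak1 and the named genes of the marker lists were picked outside this rule. The genes and the 5 pathway and 11 marker lists were chosen with earlier results of these data known. The procedure was checked on simulated data. The 8 alternatives were median centring, quantile normalization, lowess (span 0.3), floors at the 25th and 75th percentiles, the mean over probe sets, leaving out _x_at and _s_at probe sets, and a pseudocount equal to the floor. Python 3.11.15, numpy 2.4.6, pandas 2.3.3, scipy 1.17.1, statsmodels 0.14.6 and matplotlib 3.10.9 were used.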

Additional observations from a re-analysis of the deposited data

How the results depend on the processing

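No paired analysis was possible because each genotype had 1 array. The count of receptor genes at least 2-fold higher was 2 as reported and 1 after quantile normalization, with the floor at the 75th percentile and with a pseudocount equal to the floor; Il18r1 was the gene lost in the first and last of these, and Csf2rb, below that floor on both arrays, in the other. The count at least 2-fold lower was 1 as reported and 0 after removal of a lowess trend and with probe sets averaged, where Il2ra was at -0.98 and -0.95. The median log2 ratio was 0.66 as reported and 0.078 with the floor at the 75th percentile, which left 5 of the 8 genes measured; under the other 7 alternatives it moved by less than 0.21. Of 61 values of single receptor genes under the alternatives, 60 moved by less than 0.21, and Csf2rb with a pseudocount equal to the floor was at 1.23. No receptor gene with a reported ratio changed sign under any of the 8 alternatives. Over all settings Csf2rb ran from 1.23 to 1.61, Il18r1 from 0.93 to 1.06 and Il2ra from -1.05 to -0.95. Of the 16 receptor probe sets, 5 were too dim for a ratio.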
